A study of Mus musculus with 26 samples.

Results

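The genes described here encode transcription factors with known roles in cartilage, and some are also known from other cell types. They are Sox9, Sox5 and Sox6 (the SOX trio), Runx1, Runx2 and Runx3 (the RUNX family) and Erg, a factor of the ETS family. They were taken by symbol, as the probe sets that the array annotation assigns to 1 of these symbols alone. Earlier results of these data were known when the genes were chosen. The paper on these arrays had already named Erg among the transcription factors up-regulated early after surgery. The results for Erg below are therefore not independent of that report. Of the 7 genes, 6 had such a probe set and Runx2 is not analysed here. The 6 genes had 24 of the 45101 probe sets of the array, and the values of a gene are those of its brightest probe set, with the highest mean over the 26 arrays. For comparison, 18194 genes in all had a probe set of their own.

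Osteoarthritis was induced in the knee of male C57BL/6 mice aged 12 weeks by destabilization of the medial meniscus (DMM), an operation that cuts the ligament holding the meniscus to the tibia, and sham surgery served as the control. RNA came from the medial side of the joint as a whole (articular cartilage of tibia and femur, underlying bone with any osteophytes, meniscus, capsule and synovium), and each array was hybridized with RNA pooled from 3 mice. There were 2 DMM pools at 2 weeks after surgery and 3 DMM pools at each of 4, 8 and 16 weeks, with 3 sham pools at every one of these times and 3 pools of unoperated mice at time 0. The mice were 14, 16, 20 and 28 weeks old at 2, 4, 8 and 16 weeks, so in sham joints time after surgery and age cannot be told apart, and in tissue of many cell types fewer cells of a type and less RNA per cell cannot be told apart.

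SOX9 is the master regulator of chondrocytes and switches on the genes of cartilage matrix, such as type II collagen and aggrecan. SOX5 and SOX6 lack an activation domain of their own and bind DNA beside SOX9 to strengthen its action on the same genes. RUNX2 drives chondrocyte hypertrophy and bone formation, RUNX1 is known for blood stem cells and is also expressed in joint cartilage and perichondrium, RUNX3 is known for T cells and sensory neurons and acts with RUNX2 in hypertrophy, and all of them bind DNA with the shared partner CBFB. ERG is known as a factor of endothelial cells and of the permanent cartilage at the joint surface. SOX6 has a second known role in red blood cell precursors.

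The 26 arrays had median log2 signals of 7.90 to 7.95. Sham pools 1 and 3 of 2 weeks correlated least with their own group (mean r 0.965 and 0.967, against 0.977 to 0.992 in all other pools), and the mean of the skeletal muscle markers was 13.31 in pool 1 and 9.59 in pool 3. In the sections below, a difference is in log2 units with its standard error, a gene is said to rise or fall where limma gave an adjusted p under 0.05 over all 22513 probe sets tested, and comparisons at 2 weeks rest on 2 DMM pools.

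At 4 weeks after surgery, 3 of the 6 genes rose in DMM joints relative to sham joints and none fell. These were Runx1, Sox5 and Erg, and the background was 13.2% of 11503 genes higher and 7.06% lower. The median difference of the 6 genes was 0.51, against -0.02 over all genes tested. The DMM pools lay wholly above the sham pools in 5 of the 6 genes (20.8% of all genes), the exception being Sox6. At 2, 8 and 16 weeks none of the 6 genes passed the test, while 2.82%, 0% and 0.0522% of all genes did. The number of the 6 genes with an unadjusted p under 0.05 was 1 at 2 weeks, 4 at 4 weeks and 0 at 8 and 16 weeks.

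**Figure D1:**
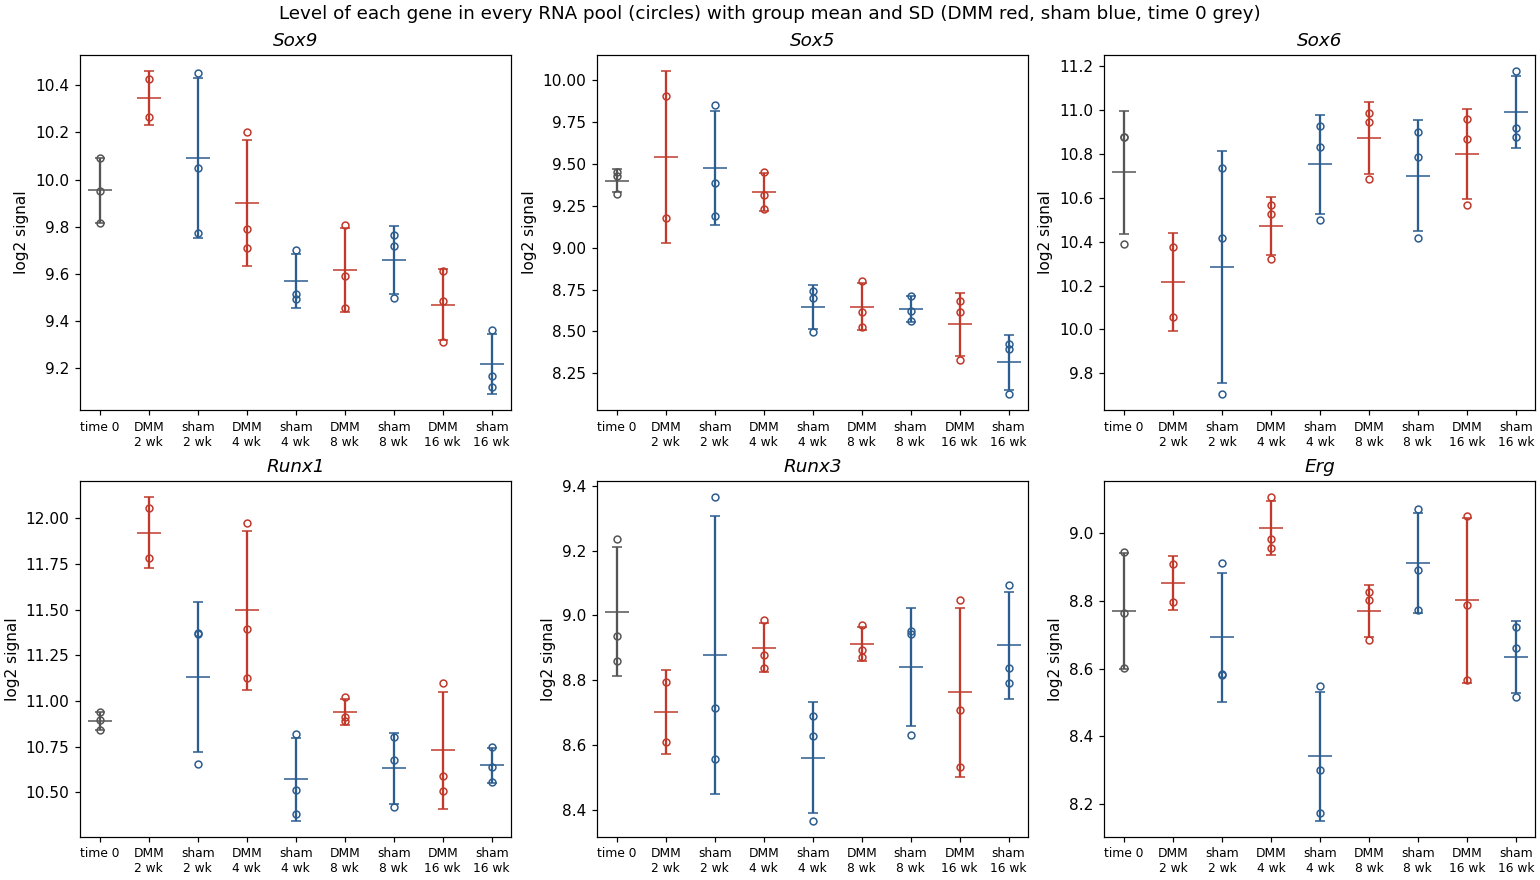
Log2 signal of the brightest probe set of each gene (y axis) in every RNA pool (circles), with the group mean and SD, by group in order of time with DMM left of sham at each week. Runx1 was highest in the DMM pools of 2 weeks (mean 11.92), Erg in those of 4 weeks (mean 9.01), and Sox9 and Sox5 were lowest in the sham pools of 16 weeks (means 9.22 and 8.32).

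Runx1 showed the widest range of group means of the 6 genes, 1.35, with a pooled SD of 0.26. At 4 weeks its log2 signal was 11.12, 11.98 and 11.39 in DMM pools and 10.51, 10.38 and 10.82 in sham pools. The groups did not overlap, and the difference was 0.93 ± 0.20, or 1.90-fold (adjusted p = 0.00391 by limma). At 2 weeks Runx1 was 12.06 and 11.79 in DMM pools and 10.66, 11.37 and 11.37 in sham pools. Both DMM pools of 2 weeks were above every sham pool, as in 14.5% of all genes, with a difference of 0.79 ± 0.22 and an adjusted p of 0.0607 by limma. That comparison passed the test without sham pool 2 (0.91, adjusted p = 0.0397) and without sham pool 3 (0.91, adjusted p = 0.0284), and not without sham pool 1 (0.55, adjusted p = 0.315). At 8 weeks the DMM pools (10.89, 11.02 and 10.91) were again all above the sham pools (10.42, 10.67 and 10.80), as in 6.56% of all genes. The difference of 0.31 ± 0.20 did not pass the test (adjusted p = 0.518 by limma). At 16 weeks Runx1 was 11.10, 10.59 and 10.51 in DMM pools and 10.75, 10.64 and 10.55 in sham pools, and the groups overlapped.

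Against the unoperated joints of time 0 (10.89, 10.94 and 10.84), Runx1 rose in DMM joints at 2 weeks by 1.03 ± 0.22, or 2.04-fold (adjusted p = 0.00167 by limma), where 16.4% of all genes rose. At 4 weeks the DMM pools were 0.61 ± 0.20 above time 0 (adjusted p = 0.0648 by limma). Of 6 fits that left out 1 pool, 1 passed the test, that without DMM pool 1 (0.79, adjusted p = 0.0155 by limma). Over the 6 fits the difference was 0.37 to 0.79, with adjusted p up to 0.362. In sham joints Runx1 did not pass the test at any week, with differences from time 0 of 0.24, -0.32, -0.26 and -0.24 at 2, 4, 8 and 16 weeks. The order of the levels thus began with DMM joints of 2 weeks and 4 weeks and ended with sham joints of 4 weeks, and every neighbour in that order overlapped with the next.

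The 6 probe sets of Runx1 did not all behave alike. At 4 weeks the probe sets 1422865_at (1.15 ± 0.22, adjusted p = 0.00199) and 1440878_at (0.91 ± 0.17, adjusted p = 0.00159) also rose in DMM joints by limma, and 1440878_at was the only probe set of the 6 genes that rose at 2 weeks as well (0.72 ± 0.19, adjusted p = 0.0477). Over the 26 arrays these correlated with the brightest one at r = 0.969 and 0.951. Between these and the rest stood 1452531_at (r = 0.828), with a difference of 0.43 ± 0.22 at 4 weeks, overlapping pools and no call (adjusted p = 0.176 by limma). In contrast, 1452530_a_at and 1427650_a_at varied by only 0.45 and 0.30 over all arrays, differed by -0.07 and 0.07 at 4 weeks, and did not track the brightest probe set (r = -0.202 and -0.0153).

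The RUNX genes each have a distal promoter, and Runx1 and Runx3 have an annotated proximal one as well. The distal promoters carry a stretch of sequence in common, which is shown because it is the longest one that the family shares there. A search of the RefSeq promoters of GRCm38.p6 (250 bases before to 50 after each start) found 15 entries for 6 of the 7 genes, those other than Sox9. The longest run of bases shared by a promoter of each RUNX gene was 18 bases long, and it holds the RUNX motif TGTGGT in its reverse complement at 2 places. The shared run is in capitals within 30 bases of each gene:
Runx1, chr16:92826025-92826054, minus strand: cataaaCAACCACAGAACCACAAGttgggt
Runx2, chr17:44814583-44814612, minus strand: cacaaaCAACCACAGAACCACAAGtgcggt
Runx3, chr4:135120503-135120532, plus strand: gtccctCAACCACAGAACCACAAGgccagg
It lies from base 27 to 44 counted from the annotated start (base 1) in Runx1, from base 22 to 39 in Runx2 and from base -136 to -119 in Runx3. Of 32851 promoters of this length, 4 hold the run on either strand, the 3 RUNX genes and the predicted gene Gm16225, whereas 16.8% hold the motif TGTGGT on either strand. The proximal promoters of Runx1 and Runx3 hold no match to that motif in this window. Neither the arrays nor the annotation used here say which promoter gave the RNA that was measured.

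Runx3 did not pass the test in any comparison. At 4 weeks its log2 signal was 8.84, 8.88 and 8.99 in DMM pools and 8.63, 8.37 and 8.69 in sham pools. The groups did not overlap, with a difference of 0.34 ± 0.16 (adjusted p = 0.149 by limma). The range of its group means was 0.45, the smallest of the 6 genes, from 8.56 in sham joints of 4 weeks to 9.01 at time 0, and all neighbours in the order of levels overlapped. Its second probe set, 1421467_at, differed by -0.05 ± 0.12 at 4 weeks and was unrelated to the first (r = 0.036 over 26 arrays).

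Sox5 rose in DMM joints relative to sham joints at 4 weeks. Its log2 signal at 4 weeks was 9.23, 9.32 and 9.45 in DMM pools and 8.70, 8.50 and 8.74 in sham pools, with a difference of 0.69 ± 0.16, or 1.61-fold (adjusted p = 0.00628 by limma). The DMM pools of 4 weeks lay near the time 0 pools (9.45, 9.32 and 9.43; difference -0.07 ± 0.16, adjusted p = 0.831 by limma), and the sham pools of 4 weeks lay below all of those. At 2 weeks Sox5 was 9.18 and 9.90 in DMM pools and 9.19, 9.39 and 9.85 in sham pools, which overlapped. At 8 weeks it was 8.53, 8.80 and 8.61 in DMM pools and 8.62, 8.56 and 8.71 in sham pools, and at 16 weeks 8.62, 8.68 and 8.33 in DMM pools and 8.13, 8.42 and 8.40 in sham pools. At both weeks the DMM and sham pools overlapped, and all of them were below every time 0 pool.

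Relative to time 0, the brightest probe set of Sox5 fell in sham joints by 0.75 ± 0.16 at 4 weeks, by 0.77 ± 0.16 at 8 weeks and by 1.08 ± 0.16 at 16 weeks (adjusted p = 0.0262, 0.0325 and 0.000324 by limma), while 0.556%, 0.574% and 4.91% of all genes fell. In DMM joints it fell by 0.75 ± 0.16 at 8 weeks and by 0.86 ± 0.16 at 16 weeks (adjusted p = 0.0235 and 0.00492 by limma), where 0.713% and 1.33% of all genes fell. The sham and DMM comparisons share the time 0 pools. None of the 6 genes passed the test against time 0 in sham joints of 2 weeks or DMM joints of 4 weeks, where 2.01% and 9.72% of all genes did and 1 of the 6 in each had an unadjusted p under 0.05. The order of the 9 group means had 1 break without overlap, between DMM joints of 4 weeks (9.33) and DMM joints of 8 weeks (8.65). The calls at 16 weeks held without any one pool, whereas the call in sham joints at 8 weeks was lost in each of the 6 cases in which a pool was left out, that in sham joints at 4 weeks in 5 of 6 and that in DMM joints at 8 weeks in 4 of 6, with adjusted p up to 0.187.

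Of the 7 probe sets of Sox5, 3 passed the filter on dim signals. Beside the brightest, 1455535_at rose in DMM joints at 4 weeks (0.66 ± 0.17, adjusted p = 0.0124) and 1423500_a_at differed by 0.42 ± 0.15 (adjusted p = 0.0541), and 1423500_a_at fell in sham joints at 16 weeks (-0.54 ± 0.15, adjusted p = 0.0357), by limma. All 4 dim probe sets were higher in DMM joints at 4 weeks (0.15 to 0.92) and were not tested. The falls from time 0 were mostly those of the brightest probe set. In DMM joints 1423500_a_at differed from time 0 by only -0.06 at 8 weeks and -0.09 at 16 weeks, and 1455535_at by -0.06 and -0.23. In sham joints they were uncalled at 4 weeks (-0.10 and -0.35) and at 8 weeks (-0.21 and -0.22), and at 16 weeks 1455535_at differed by -0.49 ± 0.17 (adjusted p = 0.105 by limma). At 2 weeks, where the brightest probe set overlapped between DMM and sham pools, 5 of the other 6 lay wholly above the sham pools in DMM pools (0.27 to 0.63), as did 14.5% of all genes, and the tested ones among them did not pass the test (adjusted p = 0.136 and 0.105 by limma). Relative to time 0, DMM joints of 2 weeks were higher by 0.61 ± 0.17 in 1423500_a_at and by 0.77 ± 0.19 in 1455535_at, and both rose (adjusted p = 0.00977 and 0.00547 by limma), whereas the brightest differed by 0.14 ± 0.18 (adjusted p = 0.594 by limma). The region upstream of the RefSeq start of Sox5 is shown because it holds a match to the SOX motif ACAATG and 1 to the ETS motif CAGGAA, both in capitals:
Sox5, chr6:143947107-143947356 of GRCm38.p6, minus strand: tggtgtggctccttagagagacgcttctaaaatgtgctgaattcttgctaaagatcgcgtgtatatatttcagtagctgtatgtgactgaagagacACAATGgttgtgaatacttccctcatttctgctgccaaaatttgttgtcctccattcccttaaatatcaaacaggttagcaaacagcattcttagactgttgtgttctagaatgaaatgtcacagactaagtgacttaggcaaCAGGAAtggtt
Of all promoters of 300 bases, 12.6% hold ACAATG and 30.6% hold CAGGAA on either strand, so matches of this kind are common.

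Erg had its highest level in DMM joints of 4 weeks and its lowest in sham joints of 4 weeks. Its log2 signal there was 8.96, 9.10 and 8.98 in DMM pools and 8.30, 8.18 and 8.55 in sham pools, with a difference of 0.67 ± 0.12, or 1.59-fold (adjusted p = 0.00145 by limma). Relative to time 0 (8.94, 8.76 and 8.60) the DMM pools were 0.24 ± 0.12 higher (adjusted p = 0.241) and the sham pools 0.43 ± 0.12 lower (-0.43, adjusted p = 0.0825), and neither passed the test by limma. At 8 weeks the DMM mean was the lower one, with 8.80, 8.83 and 8.68 in DMM pools and 8.77, 8.89 and 9.07 in sham pools, although the groups overlapped. At 2 weeks Erg was 8.91 and 8.80 in DMM pools and 8.58, 8.58 and 8.91 in sham pools, and at 16 weeks 9.05, 8.79 and 8.57 in DMM pools and 8.66, 8.72 and 8.52 in sham pools, again with overlap.

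Erg was the only one of the 6 genes that passed the test of the DMM effect at 4 weeks against that at 8 weeks, with a difference of 0.81 ± 0.17 (adjusted p = 0.0384 by limma), where 1.43% of all genes had a higher effect at 4 weeks. The corresponding values were 0.67 ± 0.23 for Sox5 (adjusted p = 0.0836) and 0.62 ± 0.28 for Runx1 (adjusted p = 0.159). The Erg call was lost in 8 of the 12 cases in which 1 pool was left out, with values of 0.73 to 0.92 and adjusted p from 0.0105 to 0.136. Between 2 and 8 weeks and between 16 and 8 weeks none of the 6 genes passed this test in limma (0% of all genes in each), and the number with an unadjusted p under 0.05 was 0 in both. The second probe set of Erg, 1425370_a_at, was below the filter, differed by 0.14 at 4 weeks and correlated with the first at r = 0.289. Of 3 annotated starts of Erg, the third is shown because it alone of the 3 holds a match to ACAATG (as its reverse complement) and to CAGGAA (likewise), in capitals:
Erg, chr16:95459349-95459598 of GRCm38.p6, minus strand: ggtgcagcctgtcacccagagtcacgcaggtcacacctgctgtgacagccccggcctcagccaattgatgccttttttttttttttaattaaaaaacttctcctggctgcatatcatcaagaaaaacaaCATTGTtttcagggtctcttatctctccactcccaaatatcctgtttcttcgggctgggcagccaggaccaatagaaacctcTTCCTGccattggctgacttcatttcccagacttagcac

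**Figure D2:**
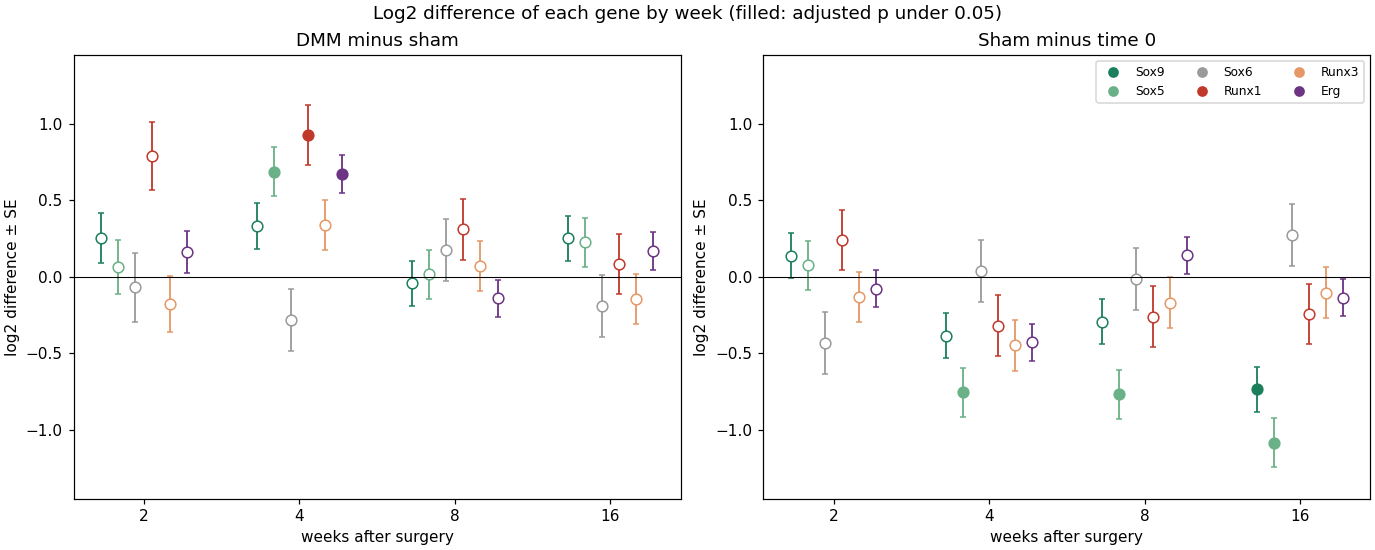
Log2 difference with its standard error (y axis) of each gene by week after surgery, DMM minus sham on the left and sham minus time 0 on the right, with filled points where the adjusted p was under 0.05. Filled points stand at 4 weeks only on the left (Sox5 0.69, Runx1 0.93, Erg 0.67), and on the right they belong to Sox5 from 4 weeks on and to Sox9 at 16 weeks (-0.74).

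Sox9 was lower in sham joints of 16 weeks than in unoperated joints. At 16 weeks its log2 signal was 9.12, 9.17 and 9.36 in sham pools and 10.09, 9.82 and 9.95 in time 0 pools, and it fell by 0.74 ± 0.15, to 0.600 of the time 0 level (adjusted p = 0.00477 by limma). The call held without any one pool (-0.81 to -0.67). In DMM joints of 16 weeks Sox9 was 9.61, 9.31 and 9.48, also below every time 0 pool (-0.48 ± 0.15, adjusted p = 0.118 by limma). The difference between DMM and sham joints at 16 weeks was 0.25 ± 0.15 and did not pass the test (adjusted p = 0.77 by limma).

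At 4 weeks Sox9 was 9.71, 9.79 and 10.20 in DMM pools and 9.70, 9.51 and 9.49 in sham pools. The DMM pools were all higher, but the nearest DMM and sham pools nearly met (9.71 and 9.70), and the difference of 0.33 ± 0.15 did not pass the test (adjusted p = 0.117 by limma). At 2 weeks it was 10.26 and 10.43 in DMM pools and 9.78, 10.05 and 10.45 in sham pools, and at 8 weeks 9.59, 9.81 and 9.46 in DMM pools and 9.50, 9.76 and 9.72 in sham pools, with overlap at both times. The highest group mean was that of DMM joints of 2 weeks (10.34) and the lowest that of sham joints of 16 weeks (9.22), and all neighbours in between overlapped.

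The 3 probe sets of Sox9 gave different answers. The dimmest, 1433889_at, followed the brightest closely (r = 0.944 over 26 arrays), rose in DMM joints at 4 weeks by 0.62 ± 0.20 (adjusted p = 0.0329) and fell in sham joints at 16 weeks (-0.76 ± 0.20, adjusted p = 0.0259), by limma. The middle one, 1424950_at, was unrelated to the brightest (r = -0.0678), with differences of -0.07 ± 0.16 at 4 weeks and 0.05 ± 0.16 in sham joints at 16 weeks. With 1433889_at in place of the brightest, Sox9 would thus also be called at 4 weeks.

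Sox6, although a member of the trio, ran opposite to Sox9 and Sox5. Over the 26 arrays Sox6 correlated with Sox9 at r = -0.775 and with Sox5 at r = -0.748, while Sox9 and Sox5 correlated at r = 0.892. All points share the tissue dissection, so these are descriptions. At 4 weeks Sox6 was 10.53, 10.32 and 10.57 in DMM pools and 10.50, 10.93 and 10.83 in sham pools, a difference of -0.28 ± 0.20 with overlap (adjusted p = 0.337 by limma). Its highest group mean was in sham joints of 16 weeks (10.99), where Sox9 and Sox5 had their lowest, and its lowest was in DMM joints of 2 weeks (10.22), where they had their highest. The 4 probe sets of Sox6 moved together (r of 0.948 to 0.966 with the brightest) and none of the 3 that passed the filter was called in any comparison of DMM with sham joints. Sox6 varied most in sham joints of 2 weeks, at 10.74, 10.42 and 9.70. Against time 0 it did not pass the test there with all pools (-0.43, adjusted p = 0.271 by limma). Of 6 fits that left out 1 pool it passed in 1, that without sham pool 1 (-0.66, adjusted p = 0.0341 by limma). Over those 6 the difference was -0.66 to -0.14, with adjusted p up to 0.882. Of 13 other settings it passed in 1, with the mean of the skeletal muscle markers as a covariate (adjusted p = 0.0423 by limma). Over those 13 the difference was -0.66 to -0.08, with adjusted p up to 0.733.

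The genes whose signal followed each factor most closely differed between the factors. For Sox9 these were Acan (r = 0.969), the core protein of the cartilage proteoglycan aggrecan, Col27a1 (r = 0.954), a fibrillar collagen of cartilage, and Cobll1 (r = 0.948). For Sox6 they were Clcn3 (r = 0.977), a chloride transporter, Cpox (r = 0.964), an enzyme of haem synthesis, and Hemgn (r = 0.963), a nuclear protein of blood cell precursors. The mean of the 5 erythroid markers that passed the filter followed Sox6 at r = 0.953, and at r = 0.918 after each group mean was subtracted, while the mean of 8 chondrocyte markers ran against it (r = -0.668). In these joints the Sox6 signal thus went with erythroid genes and not with cartilage genes. The role of Sox6 in chondrocytes was not tested. The mean of the erythroid markers was 11.86 in DMM joints of 4 weeks and 12.33 in sham joints of 4 weeks, and 0 of 5 passed the test by limma, with an unadjusted p under 0.05 for Slc4a1 (-0.48) and Klf1 (-0.62).

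For Sox5 the closest genes were Ngb (r = 0.971), a globin known from nerve cells, Rhox5 (r = 0.953), a homeobox gene known from the testis, and Zfp319 (r = 0.950). For Runx1 they were Pmepa1 (r = 0.942), a target and inhibitor of TGF-beta signalling, Ddah1 (r = 0.941), which breaks down inhibitors of nitric oxide synthase, and Slc39a6 (r = 0.938), a zinc transporter. For Erg they were Bmt2 (r = 0.903), Nkap (r = 0.891) and Cog7 (r = 0.889), a subunit of a Golgi complex. Runx3 had no close companion, the highest being Slc31a2 (r = 0.776), a copper transporter, Slc25a46 (r = 0.770) and Tet2 (r = 0.764), an enzyme that oxidizes methylated cytosine. Erg and Runx3 correlated with each other at r = 0.648, and at r = 0.827 after group means were subtracted.

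**Figure D3:**
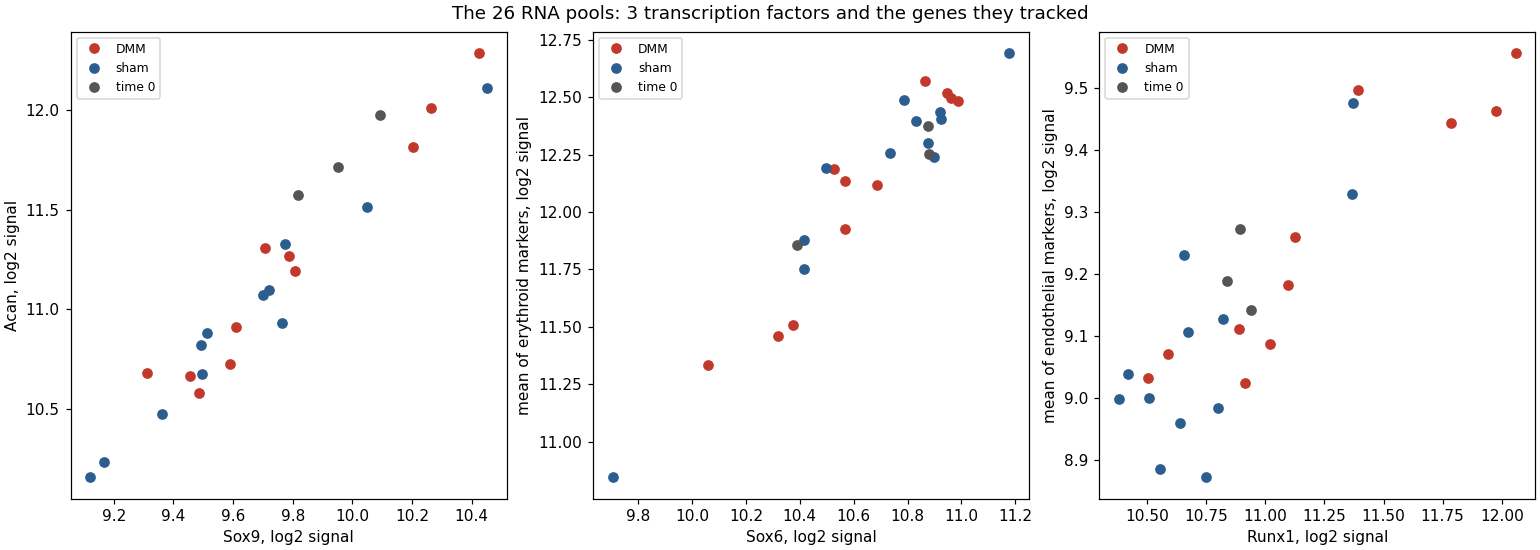
Each point is 1 of 26 RNA pools (DMM, sham and time 0), with the log2 signal of Sox9, Sox6 or Runx1 on the x axis and the log2 signal of Acan, the mean of the erythroid markers or the mean of the endothelial markers on the y axis. The correlations are r = 0.969, 0.953 and 0.863.

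Of 18 cartilage genes known as targets of SOX9 or the SOX trio, 16 passed the filter. At 4 weeks 3 of the 16 rose in DMM joints and 2 fell, where 13.2% of all genes rose and 7.06% fell, and the median difference was 0.40 against -0.02 over all genes. Those that rose were Papss2, which makes the sulfate donor for proteoglycans (0.76 ± 0.18, adjusted p = 0.00691), Acan (0.54 ± 0.19, adjusted p = 0.0492) and Chst11, a chondroitin sulfotransferase (0.34 ± 0.11, adjusted p = 0.0426), by limma. Those that fell were Cytl1, a secreted protein of chondrocytes (-1.20 ± 0.17, adjusted p = 0.000522), and Chad, a leucine-rich matrix protein (-0.49 ± 0.15, adjusted p = 0.0241), by limma. Acan was 11.27, 11.31 and 11.81 in DMM pools and 10.82, 10.88 and 11.07 in sham pools, in order of size. Col2a1 (0.55 ± 0.33), Col9a1 (0.68 ± 0.51) and Comp (0.33 ± 0.17) did not pass the test (adjusted p = 0.237, 0.355 and 0.164 by limma).

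In sham joints of 16 weeks, where Sox9 and Sox5 fell, 15 of these 16 target genes fell too, the exception being Cytl1 (-0.34 ± 0.17, adjusted p = 0.267 by limma), and the median difference was -1.24 against 0.04 over all genes. The number of target genes that fell was 0 at 2 weeks, 6 at 4 weeks and 7 at 8 weeks, and of all genes 0.556% fell at 4 weeks, 0.574% at 8 weeks and 4.91% at 16 weeks. Col9a1 (-4.50 ± 0.51), Col2a1 (-3.17 ± 0.33), Matn3 (-2.92 ± 0.33) and Comp (-0.84 ± 0.17) fell at 16 weeks (adjusted p = 2.99e-05, 1.62e-05, 2.99e-05 and 0.00406 by limma), so the fall of the collagens on the log2 scale was greater than that of Sox9 (-0.74) or Sox5 (-1.08). All 8 chondrocyte markers, 6 of which are also in the target list, fell as well, and the log2 of their summed signal was 12.67 to 13.07 in sham pools of 16 weeks and 15.55 to 15.64 in time 0 pools. With the mean of these markers as a covariate, neither Sox9 (0.03, adjusted p = 0.979) nor Sox5 (-0.04, adjusted p = 0.971) passed the test against time 0 by limma in sham joints of 16 weeks. This holds for every probe set: with that covariate, which separates these 2 groups without overlap, 0 of 22513 passed, against 1305 without it.

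**Figure D4:**
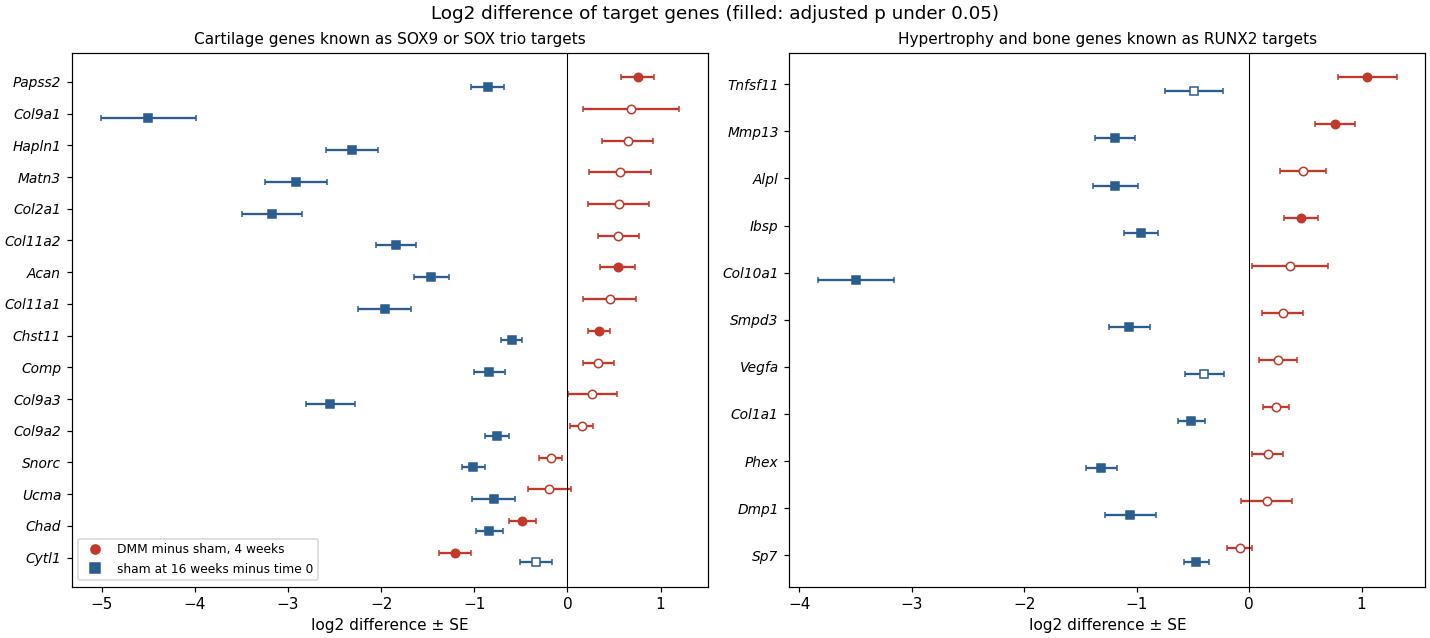
Log2 difference with its standard error (x axis) of the tested cartilage genes known as SOX targets (left) and the hypertrophy and bone genes known as RUNX2 targets (right), for DMM minus sham at 4 weeks (circles) and sham at 16 weeks minus time 0 (squares), filled where the adjusted p was under 0.05. In sham joints of 16 weeks 15 of 16 and 9 of 11 genes fell, and at 4 weeks 3 genes of each list rose in DMM joints.

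Of the hypertrophy and bone genes known as RUNX2 targets, 11 passed the filter. At 4 weeks Tnfsf11, the osteoclast-inducing ligand RANKL (1.05 ± 0.26, adjusted p = 0.00835), Mmp13, a collagenase (0.77 ± 0.18, adjusted p = 0.00676), and Ibsp, bone sialoprotein (0.46 ± 0.15, adjusted p = 0.0409), rose in DMM joints by limma, and none fell (13.2% and 7.06% of all genes). Mmp13 was 13.68, 14.03 and 14.11 in DMM pools and 13.13, 13.17 and 13.22 in sham pools, in order of size. Alpl (0.48 ± 0.20) and Col1a1 (0.24 ± 0.12) did not pass the test (adjusted p = 0.101 and 0.15 by limma). In sham joints of 16 weeks 9 of the 11 fell (4.91% of all genes), with Col10a1 (-3.49 ± 0.34) and Phex (-1.31 ± 0.14) changing most (adjusted p = 1.01e-05 and 1.62e-05 by limma).

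Of 15 partners and regulators of RUNX proteins that passed the filter, 6 rose in DMM joints at 4 weeks and none fell, against 13.2% and 7.06% of all genes. Zfp521, a zinc finger antagonist of RUNX2, rose by 1.13 ± 0.18 (adjusted p = 0.000919), and Wwtr1, the RUNX2 coactivator TAZ, by 1.01 ± 0.16 (adjusted p = 0.000837), by limma. Runx1t1, the corepressor gene that is fused to RUNX1 in human leukaemia, rose by 0.94 ± 0.21 (adjusted p = 0.00442), and Yap1, the relative of TAZ, by 0.65 ± 0.11 (adjusted p = 0.001), by limma. The other 2 were Cbfa2t2 (0.32) and Twist1 (0.51). Cbfb, the obligate partner, differed by 0.14 ± 0.09 (adjusted p = 0.272 by limma), and Mef2c and Mef2a, the other bright genes of the list, by -0.30 ± 0.12 and 0.09 ± 0.08 (adjusted p = 0.0869 and 0.438 by limma). In sham joints of 16 weeks 5 of the 15 fell (4.91% of all genes), among them Wwtr1 (-0.78 ± 0.16, adjusted p = 0.00572 by limma).

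Of 10 tested partners and upstream regulators of SOX9, 5 rose in DMM joints at 4 weeks and none fell, against 13.2% and 7.06% of all genes. They were Bmpr1a, a BMP receptor (0.67 ± 0.11, adjusted p = 0.000981), Arid5b, a coactivator of SOX9 (0.39 ± 0.10, adjusted p = 0.0124), Smad3, a transducer of TGF-beta signals (0.29 ± 0.07, adjusted p = 0.00885), Foxc1 (0.35) and Nr2f2 (0.32), by limma. Ctnnb1, which encodes beta-catenin (0.14 ± 0.08), and Pth1r, the receptor of parathyroid hormone and its related protein (0.23 ± 0.14), did not pass the test (adjusted p = 0.201 and 0.252 by limma). Among 5 other SOX factors only Sox4 rose (0.32 ± 0.11, adjusted p = 0.0453 by limma), and Sox18, a factor of endothelial cells, differed by 0.24 ± 0.09 (adjusted p = 0.054 by limma). Sox12 (-0.04), Sox13 (0.14) and Sox10, a factor of Schwann cells (-0.16), were not called. Among 10 other ETS factors Elk3 (0.73 ± 0.11, adjusted p = 0.000699) and Ets2 (0.30 ± 0.08, adjusted p = 0.0102) rose by limma. Ets1 (-0.02), Elf1 (0.03) and Elk1 (-0.52 ± 0.26, adjusted p = 0.155 by limma) were not called. These 2 of 10 ETS factors and 1 of 5 SOX factors are to be read against the 13.2% of all genes that rose. Fli1, the closest relative of Erg, differed by -0.08 ± 0.12 (adjusted p = 0.697 by limma).

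Some markers of other cell types rose or fell at 4 weeks too, where 13.2% of all genes rose and 7.06% fell. Of 8 endothelial markers 7 passed the filter and 5 rose in DMM joints (Emcn 0.57, Pecam1 0.51, Cdh5 0.48, Tek 0.38 and Robo4 0.34), and the log2 of the summed signal of the list was 12.30 to 12.56 in DMM pools and 12.09 to 12.21 in sham pools. Of 5 tested tendon and ligament markers 4 rose, the largest being Tnmd (2.20 ± 0.34, adjusted p = 0.000696 by limma). Of 5 tested adipocyte markers 4 fell, among them Adipoq (-0.89 ± 0.21, adjusted p = 0.00676) and Fabp4 (-0.75 ± 0.16, adjusted p = 0.00321), by limma. The log2 of the summed signal of the adipocyte list was 13.14 to 13.54 in DMM pools and 13.99 to 14.22 in sham pools. Of 9 myeloid markers Mpo (-0.39) and Camp (-0.32) fell. None of 10 skeletal muscle markers (median -0.79) and none of 6 lymphoid markers (median -0.44) was called by limma, with an unadjusted p under 0.05 for 0 and 1 of them. The log2 of the summed signal was lower in DMM pools without overlap in both lists (muscle 15.10 to 15.62 in DMM pools and 16.11 to 16.14 in sham pools, lymphoid 11.65 to 12.31 in DMM pools and 12.45 to 12.60 in sham pools). Of all genes, 18.7% had DMM pools wholly below the sham pools at 4 weeks. Of 8 chondrocyte markers Acan rose, of 7 osteoblast markers Ibsp rose, and of 2 tested Schwann cell markers Mbp fell (-0.26). Over the 26 arrays the endothelial mean followed Runx1 at r = 0.863, Sox9 at r = 0.859, Sox5 at r = 0.848 and Erg at r = 0.486. After group means were subtracted these were 0.650, 0.581, 0.355 and 0.632. The mean of the tendon and ligament markers followed the same genes at r = 0.839, 0.811, 0.777 and 0.379. With the endothelial mean as a covariate, none of the 6 genes and none of the 22513 probe sets passed the test at 4 weeks (limma, Runx1 0.18, Sox5 0.36, Erg 0.24). With the erythroid, the chondrocyte or the muscle mean as a covariate 3 of the 6 did. Each of these means, like the endothelial one, itself separates the DMM and sham pools of 4 weeks without overlap. The tendon and ligament mean was not used as a covariate. The part of any cell type in the differences of Runx1, Sox5 and Erg was not tested apart from these fits.

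**Figure D5:**
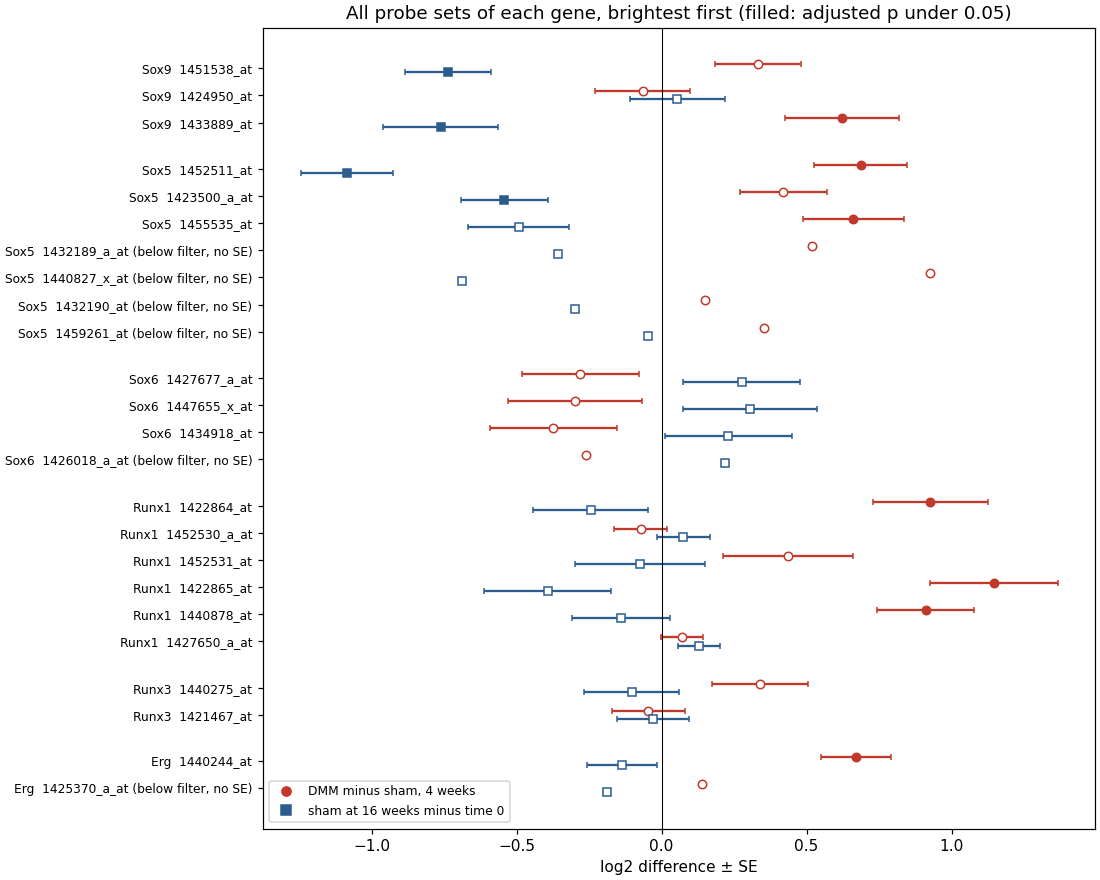
Log2 difference with its standard error (x axis) of all 24 probe sets, brightest first within each gene, for DMM minus sham at 4 weeks (circles) and sham at 16 weeks minus time 0 (squares), filled where the adjusted p was under 0.05. At 4 weeks 7 of the 18 tested probe sets rose, from Sox9, Sox5, Runx1 and Erg, against 2784 of all 22513 tested. Probe sets of the same gene are not independent. Meanwhile 1 probe set each of Sox9 and Runx3 and 2 of Runx1 lay within 0.1 of 0.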

How the data were processed

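The authors hybridized each RNA pool to an Affymetrix whole-genome mouse expression array and deposited the log2 signal of each probe set after systematic variation normalization (SVN), which sets all arrays to a common scale, so the depth of an array has no counterpart here and the number of pools limits the precision. These log2 values were used as deposited. Probe sets were named from the platform annotation: 9211 had no gene symbol, 932 had more than 1 and 34958 had 1. Those whose mean over all arrays exceeded 7.93, the median of all log2 values, were kept, which left 22513 probe sets and 11503 genes, and a gene is its brightest probe set. One linear model with a coefficient for each of the 9 conditions was fitted to all 26 arrays (17 residual degrees of freedom) with limma 3.58.1 under R 4.3.3, with Benjamini-Hochberg adjustment over all probe sets tested. The pipeline was tested on simulated data. P-values measure the spread between pools of 3 mice. The paper paired the replicate pools at random, so the pool numbers were not used to pair samples in the main fit. Exact tests over 3 against 3 pools cannot go below p = 0.1, so none is given.

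The genes, the 16 lists of related genes (167 entries, 152 with a probe set of their own) and the tests were chosen with earlier results of these data known. Of each of the 6 lists of targets, partners and relatives the text names, for DMM minus sham at 4 weeks, the 3 brightest genes and the 2 with the largest difference. Other genes of these lists and the genes named from the 10 marker lists were chosen after their values were seen, mostly because they passed the test. For each factor the 3 genes with the highest Pearson correlation over the 26 arrays are named. Promoters are those of RefSeq for GRCm38.p6. Alternatives were other filters, normalizations, covariates and probe set summaries, a block for the pool number, and leaving out each pool in turn; the endothelial, erythroid and chondrocyte covariates were added after seeing the data.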

Additional observations from a re-analysis of the deposited data

Results flagged for a closer look

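In the main fit the DMM effect on Erg differed between 4 and 8 weeks. The call was lost in 8 of the 12 fits that left out 1 pool, and held in 5 of 12 other settings. The effect at 4 weeks minus that at 8 weeks was 0.81 ± 0.17 on the log2 scale (adjusted p = 0.0384 by limma). DMM minus sham was 0.67 at 4 weeks and -0.14 at 8 weeks. All 3 DMM pools of 4 weeks were above all 3 sham pools of 4 weeks, and at 8 weeks the pools overlapped. Groups of 2 or 3 pools are too small to test a single pool as an outlier. The paper had already placed Erg, from the same arrays, in a cluster of genes up-regulated only at 4 weeks. The difference found here is therefore not independent of that report.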

How the results depend on the processing

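The 3 calls of DMM minus sham at 4 weeks (Runx1, Sox5 and Erg) remained in each of the 6 fits that left out 1 pool, and those 3 differences kept their direction under every setting that tested them. Over 13 other settings and 15 comparisons, 139 of 195 counts of called genes stayed within 1.5 times the main one. A filter at the 75th percentile leaves Sox5, Runx3 and Erg untested, and the mean of all probe sets leaves Sox5 untested; the cause of the other changes was not tested. The main counts, of 6 genes, were 3 for DMM minus sham at 4 weeks and 0 at the other weeks, 0, 1, 1 and 2 for sham minus time 0 and 1, 0, 1 and 1 for DMM minus time 0 at 2, 4, 8 and 16 weeks, and 1 for the effect at 4 weeks minus that at 8 weeks.

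For DMM minus sham at 4 weeks the count was 1 with the 75th percentile filter, 5 with array weights and 0 with the endothelial covariate. At 2 weeks it was 1 with median centring, with the mean of all probe sets and with the muscle or erythroid covariate. For sham minus time 0 it was 1 at 2 weeks with the muscle covariate. At 4 weeks it was 2 with array weights or the erythroid covariate, and 0 with the 75th percentile filter, the mean of all probe sets and the Gapdh 3 prime to 5 prime, muscle, chondrocyte or endothelial covariate. At 8 weeks it was 0 with no filter, the 75th percentile filter, the compared arrays alone, the mean of all probe sets and the muscle, chondrocyte or endothelial covariate. At 16 weeks it was 1 with the 75th percentile filter and the mean of all probe sets, and 0 with the chondrocyte or endothelial covariate. For DMM minus time 0 at 2 weeks it was 2 with the compared arrays alone and the Gapdh, erythroid or chondrocyte covariate, and 3 with array weights or the muscle covariate. At 4 weeks it was 1 with the muscle covariate and 2 with array weights or the chondrocyte covariate. At 8 weeks it was 0 with the 75th percentile filter, the mean of all probe sets and the Gapdh, chondrocyte or endothelial covariate. At 16 weeks it was 2 with the compared arrays alone or array weights, and 0 with the 75th percentile filter, the mean of all probe sets or the chondrocyte covariate. For the effect at 4 weeks minus that at 8 weeks it was 5 with array weights, 2 with the muscle covariate, and 0 with no filter, the 75th percentile filter, the compared arrays alone, the mean of all probe sets and the Gapdh, erythroid, chondrocyte or endothelial covariate.

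With the chondrocyte covariate the difference of Sox9 from time 0 turned to 0.034 in sham joints at 16 weeks and to 0.20 and 0.13 in DMM joints at 8 and 16 weeks. With the endothelial covariate Sox9 turned to -0.16 for DMM minus sham at 4 weeks and to -0.011 for DMM at 2 weeks minus time 0, and Runx1 to -0.065 for the effect at 4 weeks minus that at 8 weeks. With the erythroid covariate Sox6 turned to 0.019 for DMM at 2 weeks minus time 0. No other direction changed among the 24 results followed, those with an unadjusted p under 0.05 by limma in the main fit. Leaving out 1 pool gave 3 to 3 genes for DMM minus sham at 4 weeks, 2 to 2 for sham at 16 weeks minus time 0, 0 to 0 for sham at 8 weeks minus time 0, 1 to 2 for DMM at 2 weeks minus time 0, 1 to 1 for DMM at 16 weeks minus time 0 and 0 to 1 for DMM minus sham at 2 weeks, for sham at 2 and 4 weeks minus time 0, for DMM at 4 and 8 weeks minus time 0 and for the effect at 4 weeks minus that at 8 weeks, and 0 to 0 for the rest. The pool number as a replicate block changed no count (3 genes for DMM minus sham at 4 weeks, 2 for sham at 16 weeks minus time 0). After group means were subtracted, pools of the same number in different groups correlated at a mean r of 0.110 (-0.419 to 0.726). For pools of other numbers it was -0.0525 (-0.612 to 0.548), and 17 of 26 arrays correlated best with their own number. Whether pools of the same number shared a batch was not tested. Signal over background was not assessed here. The dimmest probe sets used, those of Erg, Runx3 and Sox5, had mean signals of 8.75 to 8.93, at the 67.6th to 70.8th percentile of all probe sets.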
